A study of Mus musculus with 2 samples.

Results

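The SLC25 genes encode the mitochondrial carrier family, which was taken as all mouse genes whose symbol starts with Slc25a, apart from Slc25a11, Slc25a12, Slc25a13 and Slc25a20. Of 23458 genes with a matched array probe, 43 belonged to it, and all 43 protein-coding genes that fit the rule had a probe. The brightest probe of each gene, by its mean processed intensity over both arrays, was used. The slow pool held 1659 GFP-positive single fibres from the soleus, a calf muscle that raises the heel, and the fast pool 4447 GFP-negative single fibres from the extensor digitorum longus (EDL), which extends the toes. Both pools were taken over 8 male mice aged 6 to 8 weeks that were GFP-Myh7 heterozygous (G/+), so the GFP allele was present in both pools. For the slow pool the tissue label gives EDL, which conflicts with the soleus of its source label and of the dissection protocol. Fibre type and muscle of origin differed together and cannot be told apart, and with 1 array per pool no difference below has a replicate check or a test.

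Carrier proteins are made from nuclear genes and nearly all sit in the inner mitochondrial membrane, where they exchange metabolites, nucleotides and cofactors between the cytosol and the matrix. In skeletal muscle the ADP/ATP and phosphate carriers supply ATP synthase and export its product, and other members feed amino acids, coenzyme A, iron or glutathione to the matrix. A pair of members are known from other membranes, Slc25a17 from the peroxisome and Slc25a46 from the outer mitochondrial membrane.

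Levels are given as log2 processed intensities minus the array's 75th percentile, and every difference is slow minus fast on that log2 scale. The error after ± is the scanner software's error of both intensities, which ran from 0.20 to 0.38 for members well above background on both arrays. Probes printed repeatedly gave differences with a median SD of 0.05 (291 probes). Neither error covers animals, dissection or labelling. A gene is called slow-biased or fast-biased below where it was at least 2-fold higher in that pool. All 7 slow sarcomere markers were slow-biased and all 9 fast markers fast-biased, with Myh7, the slow myosin heavy chain, at levels of 10.69 in the slow and 2.61 in the fast pool. In the slow pool 50.9% of spots were well above background, and in the fast pool 52.3%.

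Most carrier genes lay within 2-fold between the pools (29 of 37 measured), and the large differences sat in 8 members. Of the 43 genes, 34 were well above background on both arrays, 3 on 1 array and 6 on neither. Of the 37, 5 (13.5%) were slow-biased, against 10.8% of the 14644 genes measured on at least 1 array. The fast-biased members numbered 3 (8.11%), against 14.3% of all measured genes. With counts this small, neither share is read as particular to the carriers. The same 10.8% and 14.3% are the shares to set beside each count by substrate or list below. The slow-biased members were Slc25a22, Slc25a23, Slc25a34, Slc25a36 and Slc25a15, and the fast-biased ones Slc25a24, Slc25a45 and Slc25a25.

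The median difference of the 34 members on both arrays was -0.09, against 0.05 over 12846 genes, and the members ran from -1.55 to 2.74. In all, 15 members lay above 0 and 19 below, against 6832 above and 6014 below among the 12846 genes. With so few members this split is not read as particular to the carriers. Over 9 scalings 15 measured members changed sign, none of them among the 8 above. The share of all genes that changed sign is not given here. At a smaller size of 1.5-fold, 7 members were higher in the slow pool, where 21.2% of all measured genes were, and 8 in the fast pool, where 23.1% were. The difference exceeded the software error by a factor of at least 2 for 18 of the 34 members. It did so for 6773 of the 12846 genes, a similar share, so this count is not particular to the carriers.

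**Figure D1:**
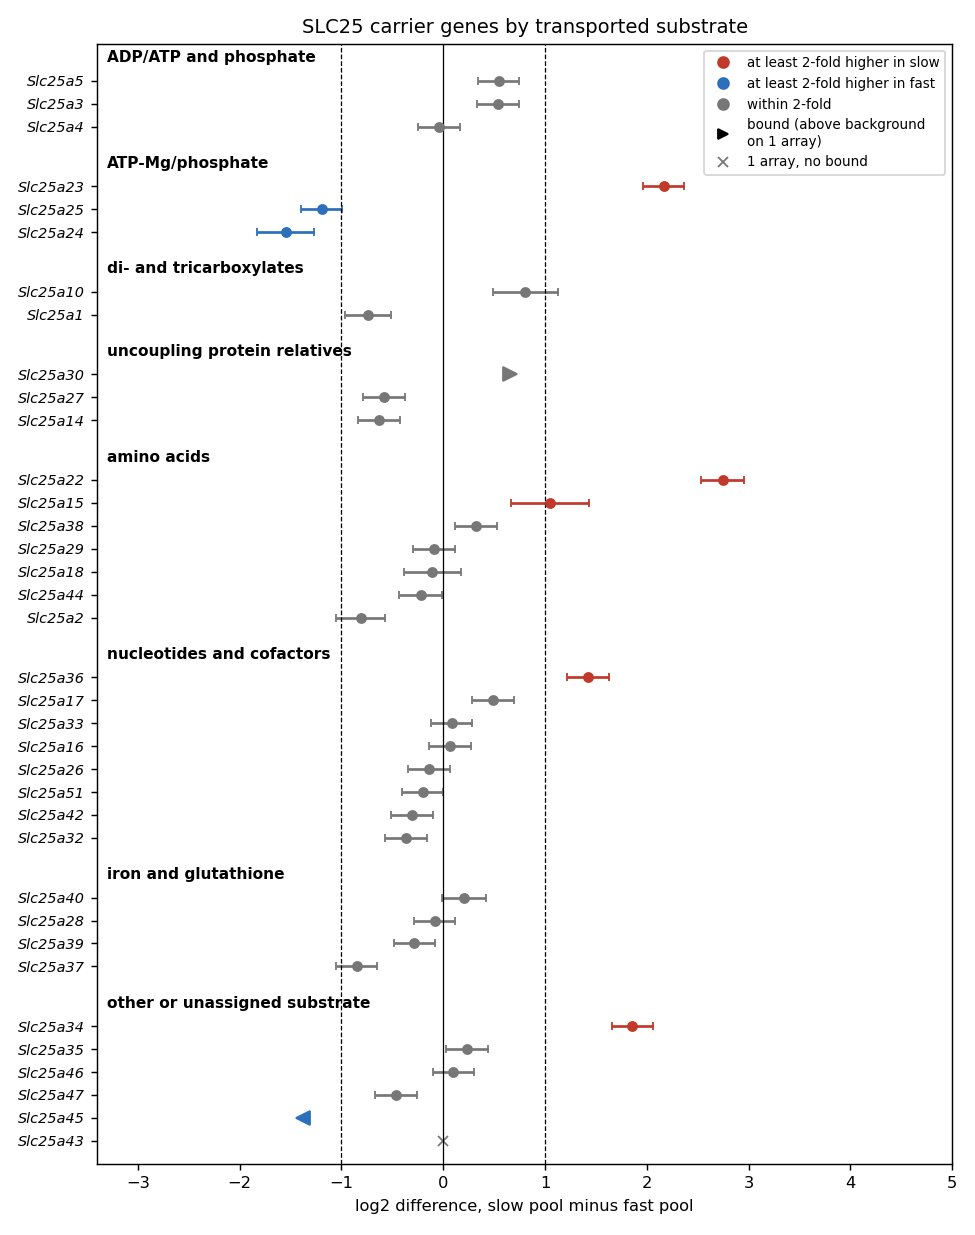
Log2 difference (slow pool minus fast pool) of the measured carrier genes named in the text, grouped by substrate. Points are genes well above background on both arrays with the software error as bars, triangles are bounds for genes above background on 1 array, the cross marks a gene with no bound, and dashed lines mark 2-fold. In this scaling Slc25a22 at 2.74 is farthest to the right, Slc25a24 at -1.55 is the lowest point, and the ATP-Mg/phosphate carriers lie on both sides of 0.

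The ADP/ATP and phosphate carriers did not pass 2-fold. Slc25a4, which encodes Ant1, the muscle and heart ADP/ATP carrier, had levels of 10.26 in the slow pool and 10.30 in the fast pool, a difference of -0.04 ± 0.20, and its other probe gave 0.06. The pools were thus level for this gene within the software error in the main scaling. The difference was 0.31 under quantile normalization, 0.29 under normexp with quantile normalization and 0.37 under spike-in scaling, each beyond that error. Slc25a5, which encodes Ant2, the ADP/ATP carrier of many other tissues, stood at 4.20 in slow and 3.66 in fast fibres, a difference of 0.54 ± 0.20. Slc25a3, the phosphate carrier, stood at 7.56 in slow and 7.02 in fast fibres, a difference of 0.54 ± 0.20, with 0.36 by its other probe. Both genes were higher in slow fibres by more than the software error and by less than 2-fold. Slc25a31, the testis form of the ADP/ATP carrier, was above background in neither pool. All 17 measured genes of ATP synthase and its inhibitor lay within 2-fold under all 9 scalings. In the main scaling their median was 0.04, against 0.05 for the 12846 genes on both arrays. The farthest there was Atpif1, the inhibitor, at -0.35 ± 0.20, with -0.56 by its other probe. The values depended on the scaling. Under quantile normalization Atp5l moved from 0.20 to 0.63 and Atp5a1 from 0.06 to 0.51, while Atp5d stayed at 0.19 and Atpif1 was at -0.38. Under spike-in scaling Atp5d was at 0.61 and Atpif1 at 0.06, so the sign of Atpif1 depended on the scaling.

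The ATP-Mg/phosphate carriers were the only substrate group in which every measured member passed 2-fold, and they did so in both directions. The proteins of the measured members, Slc25a23, Slc25a24 and Slc25a25, bind calcium and load or unload the matrix pool of adenine nucleotides. Slc25a23 had a level of 2.63 in slow fibres and 0.47 in fast fibres, a difference of 2.16 ± 0.20 or 4.48-fold. Its second probe was well above background in the slow pool only. The paralogue Slc25a25 ran the other way, with 2.16 in slow and 3.35 in fast fibres, a difference of -1.19 ± 0.20, or 2.29-fold higher in fast. All 4 of its probes gave values between -1.31 and -1.04. Slc25a24 was at -3.69 in slow and -2.14 in fast fibres, a difference of -1.55 ± 0.28. It is a dim gene, and the difference was -0.45 and -0.48 under the normexp background corrections, within 2-fold. Slc25a25 was at -0.78 under spike-in scaling, again within 2-fold.

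Set against each other within the arrays, where a constant factor between arrays cancels, Slc25a23 and Slc25a25 differed in their slow over fast ratios by 3.36 ± 0.29 on the log2 scale, or 10.3-fold. The remaining members of this group, Slc25a41 and Slc25a54, were above background in neither pool. Slc25a41 is the neighbouring protein-coding gene of Slc25a23 on chromosome 17, and Slc25a54 that of Slc25a24 on chromosome 3. Of the genes for the mitochondrial calcium uniporter and its partners, 7 of 8 were measured, with 2 slow-biased, 1 fast-biased and a median of 0.48. Micu2, a gatekeeper of the uniporter, had levels of 3.12 in slow and 2.02 in fast fibres, or 2.15-fold higher in slow, and lay within 2-fold in the authors' deposited values and under normexp with quantile normalization. Micu3, a further gatekeeper, was 5.53-fold higher in fast fibres, with levels of -0.66 in slow and 1.80 in fast.

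The promoters of the opposed paralogues Slc25a23 and Slc25a25, and of 2 further members past 2-fold, are shown for the 250 bases before the annotated start, from RefSeq on GRCm38.p6. Windows were found for 32 of the 43 members. Capitals mark a match on either strand to a motif named below, and the sequences run 5′ to 3′ on the gene's strand. The 2 further members, Slc25a36 and Slc25a34, are shown because they held a match. The windows of the other members past 2-fold, Slc25a15, Slc25a22, Slc25a24 and Slc25a45, held none and are not shown.
Slc25a23, chr17:57059864-57060113, minus strand: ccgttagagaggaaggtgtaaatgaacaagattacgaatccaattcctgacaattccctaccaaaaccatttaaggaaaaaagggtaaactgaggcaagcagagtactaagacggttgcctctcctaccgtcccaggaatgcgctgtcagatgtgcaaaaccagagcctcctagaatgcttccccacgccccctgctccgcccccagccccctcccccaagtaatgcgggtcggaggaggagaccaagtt
Slc25a25, chr2:32424067-32424316, minus strand: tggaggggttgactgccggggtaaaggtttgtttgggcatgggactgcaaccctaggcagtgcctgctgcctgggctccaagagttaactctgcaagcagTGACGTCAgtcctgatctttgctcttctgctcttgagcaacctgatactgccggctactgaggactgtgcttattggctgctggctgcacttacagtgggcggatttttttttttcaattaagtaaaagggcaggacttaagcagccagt
Slc25a36, chr9:97111042-97111291, minus strand: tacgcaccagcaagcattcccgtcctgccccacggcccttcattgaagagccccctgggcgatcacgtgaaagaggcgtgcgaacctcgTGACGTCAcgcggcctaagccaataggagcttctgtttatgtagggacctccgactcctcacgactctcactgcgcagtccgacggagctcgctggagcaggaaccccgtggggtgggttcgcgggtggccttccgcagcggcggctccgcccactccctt
Slc25a34, chr4:141623835-141624084, minus strand: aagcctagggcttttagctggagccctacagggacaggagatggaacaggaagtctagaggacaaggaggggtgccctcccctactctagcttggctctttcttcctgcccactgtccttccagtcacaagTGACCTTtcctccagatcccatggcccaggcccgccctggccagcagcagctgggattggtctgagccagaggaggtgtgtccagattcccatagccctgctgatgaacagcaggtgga
The motifs searched were the cyclic AMP response element TGACGTCA, the ERR half-site AAGGTCA, the GABP and ETS site CCGGAAGT, the NRF1 site and the MEF2 consensus, and no window of a member held more than 1 match. The cyclic AMP response element was found in Slc25a25, 150 bases before the start, and in Slc25a36, 161 bases before it, and in 1.55% of all 32851 promoter windows of this length. It thus occurred in a fast-biased and in a slow-biased member. The ERR half-site was found in Slc25a34, 119 bases before the start. That was 2.38% of the 42 windows of members, against 4.08% of all windows. The other 3 motifs had no match among the 42 windows of members, where 2.88% (GABP and ETS), 0.782% (NRF1) and 0.508% (MEF2) of all windows had one. Slc25a25 has 3 annotated windows, of which the one with a match is shown, and Slc25a23 has 2, of which 1 is shown. The motifs were chosen after the values were seen, and the arrays do not tell which start was used.

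Among the 7 amino acid carriers, 2 (28.6%) were slow-biased and none fast-biased, against 10.8% and 14.3% of all measured genes. With 7 genes, these shares are not read as particular to this group. Slc25a22, the mitochondrial glutamate carrier, had a level of 0.95 in slow and -1.80 in fast fibres, a difference of 2.74 ± 0.21 or 6.70-fold. Its other probes gave 2.67 and 0.94, so the direction was shared by all 3 probes and the size was not, and the probe used gave 1.94 and 1.96 under the normexp settings. The second glutamate carrier, Slc25a18, was level, with -3.48 in slow and -3.37 in fast fibres, a difference of -0.11 ± 0.28. The slow over fast ratio of Slc25a22 exceeded that of Slc25a18 by 7.21-fold with the probe used, and by 3.71-fold and 3.87-fold under the normexp settings. With the Slc25a22 probe at 0.94 the excess is smaller than 7.21-fold, and Slc25a18 is a dim gene. Slc25a15, which carries ornithine and citrulline, had -3.38 in slow and -4.43 in fast fibres, a difference of 1.05 ± 0.38. It is dim, and it stayed past 2-fold in 4 of 9 scalings, with a lowest value of 0.17 under normexp.

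The other 5 amino acid carriers stayed within 2-fold. Slc25a38, which carries glycine for haem synthesis, differed by 0.32 ± 0.20 and Slc25a29, a carrier of basic amino acids, by -0.09 ± 0.20. Slc25a44, the carrier of branched-chain amino acids, differed by -0.22 ± 0.21, and by -0.11 at its other probe. Slc25a2, an ornithine carrier, differed by -0.81 ± 0.24, and by -0.21 and -0.24 under the normexp settings. The enzymes that use these substrates, taken as a list of 14 genes of which 11 were measured, had 1 slow-biased and 2 fast-biased members and a median of -0.16. Gldc, of the glycine cleavage system, was well above background in slow fibres only and at least 2.60-fold higher there, but 0.24 on the log2 scale under normexp. Oat, ornithine aminotransferase, was 2.30-fold higher in fast fibres and -0.79 under spike-in scaling.

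**Figure D2:**
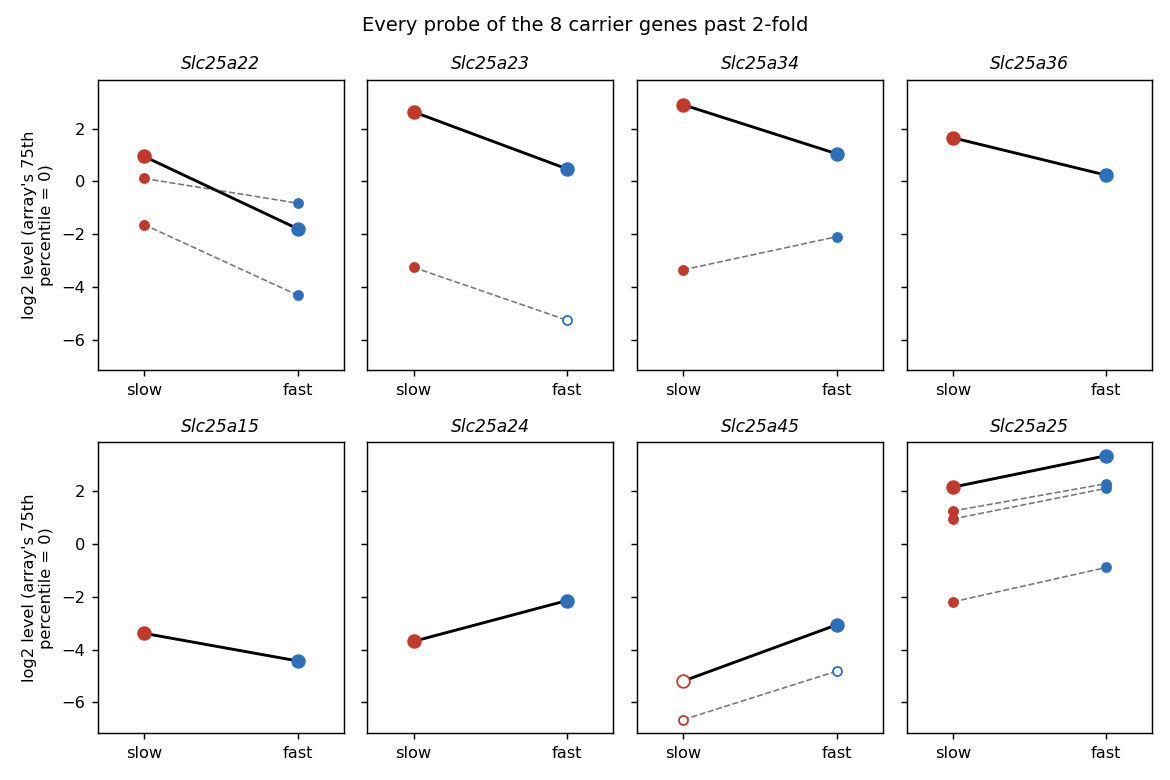
Log2 levels (the array's 75th percentile is 0) in the slow pool (left, red) and the fast pool (right, blue) for every probe of the 8 carrier genes past 2-fold. Black lines and large points are the probe used, dashed lines the gene's other probes, and open points were not well above background. The probes of Slc25a25 and Slc25a22 each slope one way, while those of Slc25a34 cross in direction, and levels of different probes are not comparable.

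Of the 9 carriers of nucleotides and cofactors, 1 (11.1%) was slow-biased and none fast-biased. Over all measured genes the shares were 10.8% and 14.3%, so these counts are not read as particular to this group. Slc25a36, a pyrimidine nucleotide carrier, had a level of 1.65 in slow and 0.23 in fast fibres, a difference of 1.42 ± 0.20 or 2.67-fold. The second pyrimidine nucleotide carrier, Slc25a33, was level, at 4.51 in slow and 4.43 in fast fibres. The slow over fast ratio of Slc25a36 exceeded that of Slc25a33 by 2.53-fold, and by 1.89-fold and 1.92-fold under the normexp settings.

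The genes tied to coenzyme A differed less, at 0.06 ± 0.21 for Slc25a16 and -0.31 ± 0.20 for Slc25a42, which carries coenzyme A. Slc25a17, the peroxisomal member, differed by 0.49 ± 0.20. Slc25a26, the carrier of S-adenosylmethionine, differed by -0.14 ± 0.20, with its probes between -0.27 and -0.12. Slc25a51, the NAD carrier, differed by -0.20 ± 0.20. Slc25a32, linked to folate and FAD, differed by -0.37 ± 0.20 with a predicted transcript's probe and by 0.40 with another probe, so its direction was not settled. The enzymes that make or use these cofactors had 3 slow-biased and 1 fast-biased of 20 measured members, with a median of 0.16. The slow-biased ones numbered 7 under spike-in scaling and 1 and 2 under the normexp settings. Pank1, which starts coenzyme A synthesis, was 2.74-fold higher in slow fibres. Mat2a, which makes S-adenosylmethionine, was 2.80-fold higher in fast fibres, with levels of 5.76 in slow and 7.25 in fast.

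All 4 carriers of iron and glutathione lay within 2-fold. Slc25a37, mitoferrin 1, the iron carrier of red cell precursors, had levels of 1.01 in slow and 1.86 in fast fibres, a difference of -0.85 ± 0.20. Its other probes gave -0.95 and 0.53, so its direction depended on the probe. Slc25a28, mitoferrin 2, the iron carrier of most tissues, was level, with 2.18 in slow and 2.27 in fast fibres, a difference of -0.09 ± 0.20. Slc25a39 and Slc25a40, which carry glutathione, differed by -0.28 ± 0.20 and 0.21 ± 0.22. Of 13 genes for haem and iron-sulphur cluster assembly, none was slow-biased and 1 was fast-biased, with a median of -0.18. That gene was Alas2, which starts haem synthesis in red cell precursors, at -1.12 ± 0.26, and within 2-fold at -0.37 and -0.40 under the normexp settings and at -0.70 under spike-in scaling.

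Most measured red cell markers were higher in the fast pool, as Slc25a37 was by the probe used. Of 13 with a probe 9 were measured, of which 7 (Alas2 among them) were fast-biased and none slow-biased, with a summed scaled signal of 37.8 in the slow and 98.5 in the fast pool. Most of the 7 were globin genes (Hba-a1, Hba-a2, Hbb-b1, Hbb-b2 and Hbb-bt), which are related and not separate markers. Hba-a1, at levels of 4.04 in slow and 5.47 in fast, and Hba-a2, at 3.96 and 5.42, made up most of that sum in both pools. Fast-biased red cell markers numbered 4 under each normexp setting and 2 under spike-in scaling. Ermap lay towards the slow pool at 0.26, and Klf1 was well above background in the slow pool only, by at least 1.49-fold. Rhag, Epb42 and Gata1 were among the markers not well above background in either pool. Their part in the Slc25a37 difference was not tested, and in pooled fibres fewer cells of a type and less RNA per cell cannot be told apart. Of the fibroblast markers 8 of 9 were fast-biased (summed signal 39.4 in slow and 159 in fast) and of the endothelial markers 10 of 11 (7.34 in slow and 28.3 in fast). The fibroblast count was 5 under each normexp setting and 6 under spike-in scaling, and the endothelial count likewise 5 and 6. Of the macrophage markers 2 of 5 measured were fast-biased (4.40 in slow and 16.2 in fast), with Ptprc, Adgre1 and C1qa not above background. Cd68, at levels of 1.57 in slow and 3.71 in fast, made up most of that sum in both pools. C1qb lay towards the slow pool at 0.31, and Cd163 was well above background there only, by at least 1.90-fold. Of the adipocyte markers 1 of 2 measured was fast-biased (8.34 in slow and 18.7 in fast), with Adipoq, Plin1, Cidec and Retn not above background, and none was fast-biased under spike-in scaling. That marker was Fabp4, at levels of 3.01 in slow and 4.20 in fast, which made up most of that sum in both pools. The other, Lep, differed by 0.21 ± 0.22. The part of these cell types in the higher Slc25a24, Slc25a25 and Slc25a45 signals of the fast pool was not tested.

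The carriers of di- and tricarboxylates lay within 2-fold, on opposite sides of 0. Slc25a10, the dicarboxylate carrier, was at -3.33 in slow and -4.13 in fast fibres, a difference of 0.80 ± 0.32, which was 1.22, past 2-fold, under spike-in scaling and 0.14 and 0.10 under the normexp settings. Slc25a1, the citrate carrier that supplies cytosolic acetyl groups, was at -2.61 in slow and -1.87 in fast fibres, a difference of -0.74 ± 0.23, with -0.24 by its other probe and -0.26 and -0.29 under the normexp settings. Slc25a21, the oxodicarboxylate carrier, was above background in neither pool.

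The relatives of the uncoupling proteins were likewise within 2-fold in the main scaling. Slc25a14 and Slc25a27, both best known from brain, differed by -0.63 ± 0.21 and -0.58 ± 0.21. The other probes of Slc25a27 gave -0.62 and -0.09, the latter within the software error. Slc25a30, best known from kidney, was well above background in slow fibres only, by at least 1.58-fold, and by its other probe in neither pool. Its plain difference of 0.79 was -0.01 and -0.05 under the normexp settings, so the direction was lost, and 1.20, past 2-fold, under spike-in scaling. Among 18 measured genes of the uncoupling proteins, porins, pyruvate carriers, sideroflexins and other mitochondrial transporters, 2 were slow-biased and 2 fast-biased, with a median of 0.17. Ucp2, an uncoupling protein gene, was 5.10-fold higher in slow fibres, with levels of -0.99 in slow and -3.34 in fast. Its difference of 2.35 was 2.83 by its other probe and 1.09 and 1.07 under the normexp settings, or 2.14-fold and 2.10-fold. Sfxn4, a sideroflexin of respiratory complex assembly, was 3.02-fold higher in slow fibres, with 0.67 under normexp. Sfxn3, a serine-transporting sideroflexin, was 19.5-fold higher in fast fibres, with levels of -2.47 in slow and 1.82 in fast, and 7.43-fold and 7.28-fold under the normexp settings. Sfxn5 was 2.24-fold higher in fast fibres and within 2-fold under normexp and spike-in scaling.

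Of 8 members with another or no assigned substrate, 1 was slow-biased and 1 fast-biased. Slc25a34 had levels of 2.90 in slow and 1.04 in fast fibres, a difference of 1.86 ± 0.20 or 3.63-fold, and its promoter with an ERR half-site is printed above. Its second probe, for the same transcript accession, gave -3.36 in slow and -2.10 in fast fibres, a difference of -1.26 ± 0.27. The direction of this gene thus depended on the probe, and the median over both probes was 0.30. Its paralogue Slc25a35 differed by 0.24 ± 0.21. Slc25a45 had -5.20 in the slow pool, not above background, and -3.06 in the fast pool, a fast bias of at least 2.61-fold. It was within 2-fold under both normexp settings and under spike-in scaling, and its other probe was not above background in either pool.

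Slc25a46, which acts in fusion and fission at the outer membrane, was level at 0.10 ± 0.20, with 0.39 by its other probe. Slc25a47, best known from liver, differed by -0.46 ± 0.21. Slc25a43 was just above background in fast fibres only, at -4.49 in both pools, and gave no fold. Slc25a48 and Slc25a53 were not well above background in either pool.

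**Figure D3:**
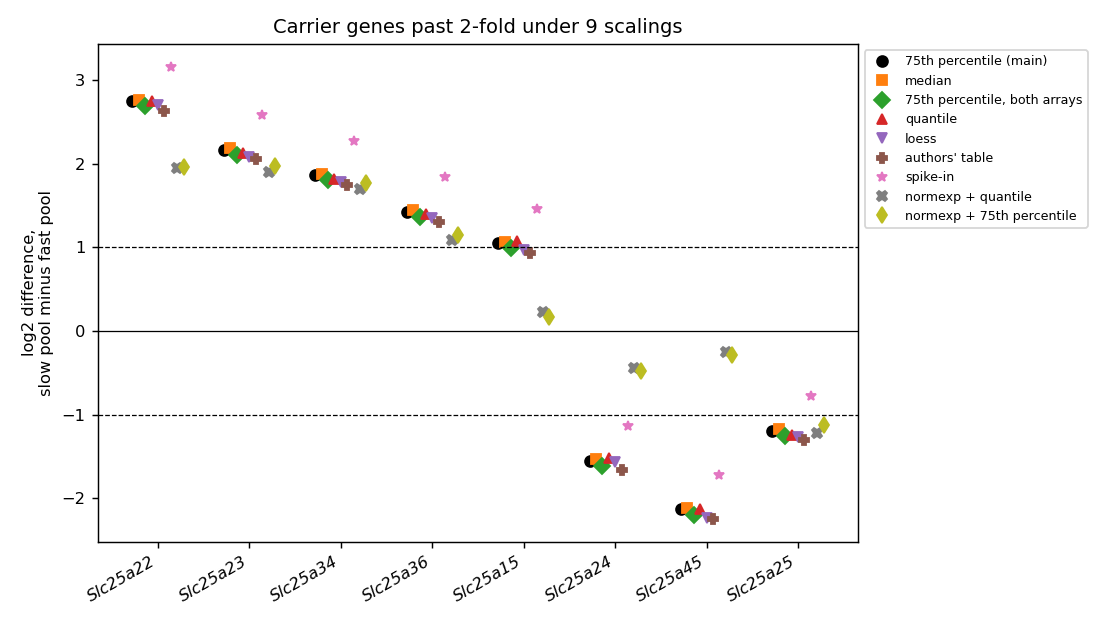
Log2 difference (slow pool minus fast pool) of the 8 carrier genes past 2-fold under 9 scalings or background corrections, 1 symbol each, with dashed lines at 2-fold. Slc25a45 is drawn as the plain ratio of its probe. Slc25a22, Slc25a23, Slc25a34 and Slc25a36 stay above 1 throughout, while Slc25a15, Slc25a24 and Slc25a45 shrink towards 0 under normexp.

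Where a gene had several probes above background on both arrays, they mostly told the same direction. This held for 10 of 14 such members. The exceptions were Slc25a34, Slc25a37, Slc25a32 and, with values at 0 within the error, Slc25a4. The carriers lie on 19 chromosomes, with 4 pairs of neighbouring protein-coding genes. Of the neighbours on both arrays, Slc25a29 and Slc25a47 on chromosome 12, the differences were -0.09 and -0.46.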

How the data were processed

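Total RNA of 2 fibre pools was labelled with Cy3 and hybridised to 1 Agilent array each. The deposited intensities had been corrected for background and spatial trend array by array with Feature Extraction 12.0.3.1 from Agilent, per the file headers, with no step between arrays. In the authors' deposited table the intensities are linear and uncentred, 2.45 times the processed signal on the slow array and 2.83 times on the fast array, with column medians of 27.1 and 30.1. The target of these factors is unknown.

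Control spots and 159 outlier spots were left out, repeated spots were averaged, and no spot was saturated. The 75th percentile over the remaining spots was 192 on the slow and 179 on the fast array. Of 56596 probes, 33763 (59.7%) matched a gene of the RefSeq table (GRCm38.p6, used for names, since the array design refers to mm9). A probe well above background on 1 array has a bound, with the dim side set to its own signal or, if higher, to the lowest signal well above background there. The number of arrays limits the precision, so a size rule of 2-fold replaced tests. Normexp (limma 3.58.1, offset 50) ran on median spot intensities, since no mean spot signal is given. The 75th percentile, median, quantile and loess scalings were tested on simulated data, in which the slow array was built from the fast one. Spike-in scaling, the authors' values and the normexp settings were not tested so. The rule names every member, and of each other list the 2 highest and 2 lowest past 2-fold, or the farthest from 0. Some genes that it names are counted but not reported here. The members, lists and motifs were chosen with earlier results of these data known.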

Additional observations from a re-analysis of the deposited data

How the results depend on the processing

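No paired analysis was possible because each pool has 1 array. Slow-biased members numbered 5, and 4 to 7 under the other scalings, with 7 under spike-in scaling. Fast-biased members numbered 3, but 1 under spike-in scaling, 1 under each normexp setting and 8 at a size of 1.5-fold. Spike-in scaling adds 0.41 to every difference, and the authors' values shifted the median of all genes by -0.11, while the other scalings moved it by less than 0.1. Of all genes past 2-fold, 43.0% were higher in slow fibres, against 70.2% under spike-in scaling. Under spike-in scaling the median of the members was 0.32, and the medians by substrate were 0.95 (ADP/ATP and phosphate), -0.78 (ATP-Mg/phosphate), 0.45 (di- and tricarboxylates), -0.19 (uncoupling protein relatives), 0.32 (amino acids), 0.27 (nucleotides and cofactors), 0.23 (iron and glutathione) and 0.58 (other). The ATP-Mg/phosphate median was -0.45 when normexp was followed by quantile normalization and -0.48 when the 75th percentile followed it. Every other median by substrate moved by less than 0.20 under the remaining alternatives. Slc25a34 reversed to -1.26 by its other probe, and the cause was not tested. Of the 37 measured members, 15 changed sign over the 9 scalings, none of them among the 8 past 2-fold. No such count over all genes is given to set beside it. None of the 3 fast-biased members passed 2-fold under all 9 scalings, while Slc25a22, Slc25a23, Slc25a34 and Slc25a36 did by the probe used. Slow-biased and fast-biased amino acid enzymes numbered 2 and 0 under spike-in scaling, and the other transporters 1 and 1 under each normexp setting. Dim probes limit Slc25a15, Slc25a24 and Slc25a45.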
